A study of Mus musculus with 8 samples.

Results

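The genes described here encode the aminoacyl-tRNA synthetases of the mouse, 36 of the 55414 gene identifiers in the count tables. Members were chosen by name: 20 cytosolic enzymes, among them both subunits of the phenylalanyl enzyme (Farsa and Farsb), and 16 mitochondrial enzymes whose symbols end in 2. All 36 were matched to an Ensembl identifier and all 36 passed the filter on low counts.

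RNA sequencing was done on pancreatic islets, the endocrine clusters of the pancreas, from C57BL/6 mice at 5 weeks of age. The 4 libraries labelled TG came from mice of the genotype Ins2 cre(+/-) ATF4 TG(+/-), and the 4 labelled WT from mice that were Ins2 cre(-/-) ATF4 TG(+/-). Every mouse therefore carried the ATF4 transgene on 1 allele, and the groups differed in Ins2 cre, which by its name expresses Cre recombinase from the insulin 2 gene, active in beta cells. TG and WT stand for libraries so labelled throughout. The labels do not tell whether replicates were separate animals, so p-values measure the spread between these samples, which may be technical.

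Aminoacyl-tRNA synthetases join each amino acid to its tRNA and so supply the ribosome with its substrates. Nearly all amino acids have a cytosolic enzyme and a separate mitochondrial enzyme made from another nuclear gene, while Gars and Kars each encode both forms. Several cytosolic enzymes are held in the multisynthetase complex by scaffold proteins, and all synthetases fall into catalytic class I or class II by the fold of their active site. ATF4 is the transcription factor of the integrated stress response, and many cytosolic synthetase genes are known among its targets. Beta cells make large amounts of insulin and so depend on a steady supply of charged tRNA.

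Gene counts per library ran from 16521087 to 22499999. Atf4 itself measured 261 ± 19.8 CPM (counts scaled to the library's size after TMM normalisation; SD, n = 4) in TG and 352 ± 21.1 CPM (SD, n = 4) in WT. Atf4 was called lower in TG, with a log2 fold change of −0.43. Whether transcripts of the transgene are counted under Atf4 is not stated, so these counts cannot check the labels. The established targets Trib3, Asns and Chac1 were called higher in TG, with log2 fold changes of 5.39, 2.46 and 3.98. Ddit3, listed with them, was not called (log2 fold change 0.22). All 10 beta-cell markers were called lower in TG, and their summed level lay between 50093 and 64198 CPM there and between 103120 and 123760 CPM in WT. Of the endothelial markers 10 of 10 were called higher, and of the stellate, fibroblast and mural markers 6 of 10. Called higher as well were 5 of 6 duct markers and 7 of the 9 tested macrophage and lymphocyte markers. Only 1 of 11 acinar and 1 of 4 Schwann cell markers were called higher. Of 5 alpha-cell, 3 delta-cell and 1 PP-cell markers, 0 were called in either direction.

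Cytosolic synthetases were mostly higher in TG, and mitochondrial ones were not. Of the 20 cytosolic genes, 13 were called higher in TG at an adjusted p under 0.05 in edgeR's quasi-likelihood test and 0 were called lower. Over all 20509 genes tested, 12.1% were called higher and 8.06% lower. The median log2 fold change of the cytosolic genes was 0.66, with a range from −0.27 to 1.07, against a median of −0.00 over all genes tested. Of the 16 mitochondrial genes 0 were called higher and 3 were called lower, and their median was −0.16. At an unadjusted p under 0.05, 0 mitochondrial genes were higher and 4 lower in edgeR, in DESeq2 and in limma-voom alike, and 1 cytosolic gene (Farsa) was lower. The share of all tested genes under that unadjusted threshold was not computed, so these counts have no background beside them. By its adjusted p DESeq2 called Farsa lower. Every TG library lay above every WT library for 13 cytosolic and 0 mitochondrial genes, which 12.6% of all tested genes did. Every TG library lay below every WT library for 1 cytosolic and 3 mitochondrial genes, against 9.94% of all tested genes. These counts describe the classes and no test was made of a class.

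**Figure D1:**
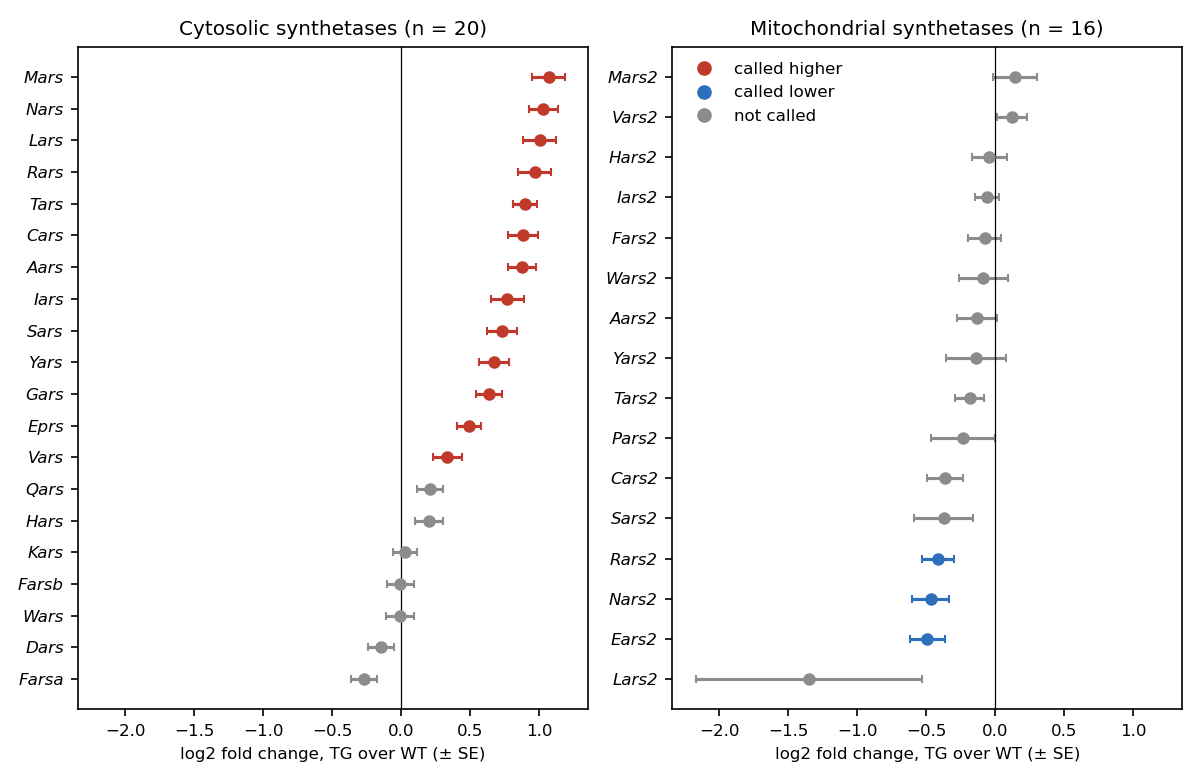
Log2 fold change of each synthetase, TG over WT, with its standard error (n = 4 libraries per group), for the 20 cytosolic genes on the left and the 16 mitochondrial genes on the right. Red points were called higher and blue points lower in edgeR's test; the cytosolic column runs from Farsa at −0.27 to Mars at 1.07, and the mitochondrial column from Lars2 at −1.35 to Mars2 at 0.14.

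Promoters are shown for the members that hold a motif a known regulator binds. RefSeq promoter windows of GRCm38.p6, running from 250 bases before to 50 bases after a transcription start, were matched to 27 of the 36 members: 13 cytosolic and 14 mitochondrial. They were searched on both strands for TGATGNAA, the C/EBP-ATF response element that ATF4 binds as a dimer with C/EBP proteins, where N is any base. The element was in 5 of the 13 cytosolic windows (38.5%), in 0 of the 14 mitochondrial windows and in 4.51% of the windows of all 27025 genes. All 5 belong to cytosolic genes called higher (5 of 8 with a window), and 0 of the 5 windows of cytosolic genes that were not called held the element. For each of the 5 genes a match is shown in the 30 bases around it, 5′ to 3′ on the strand of the gene, with the matching 8 bases in capitals. TTGCATCA and TTTCATCA are the element read on the other strand.
Aars, chr8:111033840-111033869, plus strand: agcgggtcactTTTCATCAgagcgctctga
Gars, chr6:55037960-55037989, plus strand: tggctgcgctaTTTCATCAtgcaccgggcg
Iars, chr13:49682126-49682155, plus strand: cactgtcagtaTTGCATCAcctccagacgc
Tars, chr15:11399655-11399684, minus strand: caggagtcccgTTGCATCAgctggttagct
Yars, chr4:129189895-129189924, plus strand: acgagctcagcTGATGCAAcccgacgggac

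Not every match is shown. Of those shown, 3 carry the same letters on either strand, TTGCATCA or its reverse complement TGATGCAA. They are those in Iars, Tars and Yars. Counted from the first transcribed base as 0, the matches shown begin at 9 in Aars, −30 in Gars, 7 in Iars, −15 in Tars and 3 in Yars. The matches shown for Aars, Iars and Yars therefore lie within the first transcribed bases. The threonyl pair shows the contrast between the compartments at full length, since Tars was called higher and Tars2 was not called. The 250 bases before the start of each gene follow, with the match of Tars in capitals; Tars2 has 0 matches.
Tars, chr15:11399659-11399908, minus strand: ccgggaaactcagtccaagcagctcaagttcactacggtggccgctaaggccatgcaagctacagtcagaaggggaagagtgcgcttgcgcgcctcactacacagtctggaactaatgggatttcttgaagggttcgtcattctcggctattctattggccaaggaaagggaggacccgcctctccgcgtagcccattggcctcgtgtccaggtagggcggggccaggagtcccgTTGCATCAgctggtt
Tars2, chr3:95754978-95755227, minus strand: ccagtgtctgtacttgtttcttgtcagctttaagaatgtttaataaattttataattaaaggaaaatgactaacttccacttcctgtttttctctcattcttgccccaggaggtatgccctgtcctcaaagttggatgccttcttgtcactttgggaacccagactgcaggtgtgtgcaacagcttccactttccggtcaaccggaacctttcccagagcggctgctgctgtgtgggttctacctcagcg

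Another motif was found in mitochondrial windows. GCATGCGC, the core of the motif of nuclear respiratory factor 1, a regulator of nuclear genes for mitochondrial proteins, was in 3 of the 14 mitochondrial windows (21.4%), in 0 of the 13 cytosolic windows and in 3.05% of all windows; the difference between the compartments was not tested. Its matches, in capitals, are these.
Rars2, chr4:34614895-34614924, plus strand: cggccccgtgtGCATGCGCactccacactt
Vars2, chr17:35667594-35667623, minus strand: tccccgcccacGCATGCGCgcgcacctcgc
Vars2, chr17:35667620-35667649, minus strand: gagtcttttacGCATGCGCctgcgtgtccc
Wars2, chr3:99141015-99141044, plus strand: ccagaggacagGCGCATGCgtagtaagcac

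Of these 3 genes only Rars2 was called in TG against WT, and it was lower. The cyclic AMP response element TGACGTCA was in 0 of the 27 windows and in 2.03% of all windows. A match is a string in a window, no match of 1 motif overlapped that of another, and no binding was measured. A window without a match says nothing about sequence elsewhere in the gene.

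Among cytosolic enzymes outside the multisynthetase complex, 8 of 12 were called higher (median log2 fold change 0.66). Nars (ENSMUSG00000024587), the asparaginyl-tRNA synthetase, measured 401, 481, 411 and 477 CPM in TG replicates 1 to 4 and 197, 198, 208 and 263 CPM in WT replicates 1 to 4. The highest WT library was well under the lowest TG library. Its mean was 443 ± 42.5 CPM in TG and 217 ± 31.3 CPM in WT (SD, n = 4), a log2 fold change of 1.03 (SE 0.11, adjusted p = 9.55e-06). Asns, which makes the asparagine that this enzyme loads, rose as well, from 122 ± 10.01 CPM to 673 ± 57.8 CPM (SD, n = 4).

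Tars (ENSMUSG00000022241), the threonyl enzyme whose promoter is shown above, measured 289, 329, 296 and 306 CPM in TG and 151, 168, 154 and 183 CPM in WT. The TG libraries sat close together, with a coefficient of variation of 5.77% and no overlap with WT. Its log2 fold change was 0.90 (SE 0.087, adjusted p = 4.91e-06), the lowest adjusted p among the 36 genes. Aars (ENSMUSG00000031960), the alanyl enzyme, measured 258.6, 324.7, 249.03 and 235.3 CPM in TG and 145, 137, 156 and 143 CPM in WT. TG replicate 2 was the highest, and the groups did not overlap. The log2 fold change of Aars was 0.88 (SE 0.10, adjusted p = 2.86e-05).

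Cars (cysteinyl, 0.89), Sars (seryl, 0.73), Yars (tyrosyl, 0.67) and Gars (glycyl, 0.64) were also called, each with all TG libraries above all WT libraries. Sars, the second most abundant synthetase by counts, measured 454, 605, 466 and 585 CPM in TG and 310.1, 279, 331 and 352 CPM in WT, while Cars measured 155, 203, 162 and 169 CPM in TG and 90.6, 78.85, 95.5 and 109 CPM in WT. In both genes TG replicate 2 was the highest library. Gars measured 263, 362, 310 and 326 CPM in TG and 201, 196, 199 and 215 CPM in WT. Its transcript serves both compartments, and it moved with the cytosolic genes. Yars measured 65.0, 83.0, 68.4 and 62.1 CPM in TG and 43.5, 39.0, 48.3 and 43.9 CPM in WT. With Gars, Iars, Tars and Aars, Yars completes the 5 genes that hold the element, which had log2 fold changes between 0.64 and 0.90. The 3 called cytosolic genes with a window but no match were Eprs at 0.49, Mars at 1.07 and Sars at 0.73, so the sizes of the changes in genes with and without a match overlapped.

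Vars, the valyl enzyme, had the smallest rise among the called genes. It measured 51.5, 61.3, 62.3 and 68.1 CPM in TG and 44.8, 46.4, 54.2 and 47.3 CPM in WT, and TG replicate 1 fell below WT replicate 3. Its log2 fold change was 0.34 (SE 0.10, adjusted p = 0.0315). The call was lost when TG replicate 2, 3 or 4 or WT replicate 1, 2 or 4 was left out, with log2 fold changes between 0.25 and 0.33 and adjusted p-values between 0.0661 and 0.12.

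Of the 8 enzymes of the multisynthetase complex, 5 were called higher and the median log2 fold change was 0.63. Mars (ENSMUSG00000040354), the methionyl enzyme that charges the initiator tRNA, measured 122, 178, 147 and 139 CPM in TG and 60.3, 65.8, 76.1 and 77.3 CPM in WT. The lowest TG library was far above the highest WT library. Its log2 fold change of 1.07 (SE 0.12, adjusted p = 1.86e-05) was the largest rise among the 36. In the annotation Mars overlaps Ddit3, the stress-induced factor CHOP, on the opposite strand, and whether reads were counted by strand is unknown. Ddit3 counted 37.7 ± 1.08 CPM in TG and 32.5 ± 2.03 CPM in WT (SD, n = 4; not called, adjusted p = 0.126). Of the 50-base stretches of Mars, 0.545% were found in any other gene.

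Lars (ENSMUSG00000024493), the leucyl enzyme that also reports leucine to the mTORC1 pathway, measured 271, 366, 323 and 414 CPM in TG and 158, 190.5, 158 and 178 CPM in WT. Rars, the arginyl enzyme, measured 199, 256, 224 and 305 CPM in TG and 126, 126, 111 and 141 CPM in WT. In both genes TG replicate 4 was the highest library, and TG replicate 1, the lowest TG library, was above all WT libraries. Their log2 fold changes were 1.003 (SE 0.12) and 0.97 (SE 0.12).

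Iars, the isoleucyl enzyme, measured 96.9, 96.2, 92.3 and 95.2 CPM in TG and 50.1, 53.5, 46.5 and 73.3 CPM in WT. The TG libraries were nearly equal and WT replicate 4 stood above its group, with a log2 fold change of 0.77 (SE 0.12, adjusted p = 0.000421). Eprs, which joins the glutamyl and prolyl enzymes in 1 protein, was the most abundant synthetase by counts. It measured 840.0, 857, 752 and 906 CPM in TG and 648, 572, 589.5 and 580.2 CPM in WT, a log2 fold change of 0.49 (SE 0.087, adjusted p = 0.00106).

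The other 3 enzymes of the complex, Dars (aspartyl), Kars (lysyl) and Qars (glutaminyl), were not called. Kars measured 122 ± 5.65 CPM in TG and 120 ± 12.3 CPM in WT (SD, n = 4; log2 fold change 0.03). Dars measured 109.7, 109.6, 109.9 and 130.0 CPM in TG and 140.4, 123, 114 and 131 CPM in WT, and the groups overlapped (−0.14, SE 0.092, adjusted p = 0.309). For Qars all TG libraries, between 74.4 and 89.1 CPM, were above all WT libraries, between 61.0 and 73.6 CPM. Its log2 fold change of 0.21 (SE 0.093) had an adjusted p of 0.13. The genes for the 3 scaffold proteins of the complex, Aimp1 (0.15), Aimp2 (0.03) and Eef1e1 (0.17), were not called either.

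Outside the complex, Farsa, Farsb, Hars and Wars were not called. Farsa and Farsb encode the subunits of the phenylalanyl enzyme. Farsa measured 51.8, 53.1, 48.3 and 51.0 CPM in TG and 57.9, 65.4, 68.5 and 54.4 CPM in WT, the only cytosolic member with all TG libraries below all WT libraries. The log2 fold change of Farsa was −0.27 (SE 0.095, adjusted p = 0.0571), and without TG replicate 4 or WT replicate 4 the adjusted p was 0.0478 or 0.0328. Farsb measured 37.7 ± 2.79 CPM in TG and 37.8 ± 2.64 CPM in WT (SD, n = 4). Wars, the tryptophanyl enzyme, measured 78.6 ± 8.86 and 79.1 ± 7.005 CPM, and Hars, the histidyl enzyme, 57.7 ± 5.30 and 50.2 ± 4.79 CPM (log2 fold change 0.20, SE 0.10, adjusted p = 0.188). Hars and Hars2 overlap on opposite strands, and 5.87% of the 50-base stretches of Hars were found in Hars2.

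By catalytic class, 7 of the 9 cytosolic class I genes were called higher (median 0.77) and 5 of the 10 class II genes (median 0.42). Eprs, which holds an enzyme of each class, was left out of both counts. The difference between the classes was not tested.

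**Figure D2:**
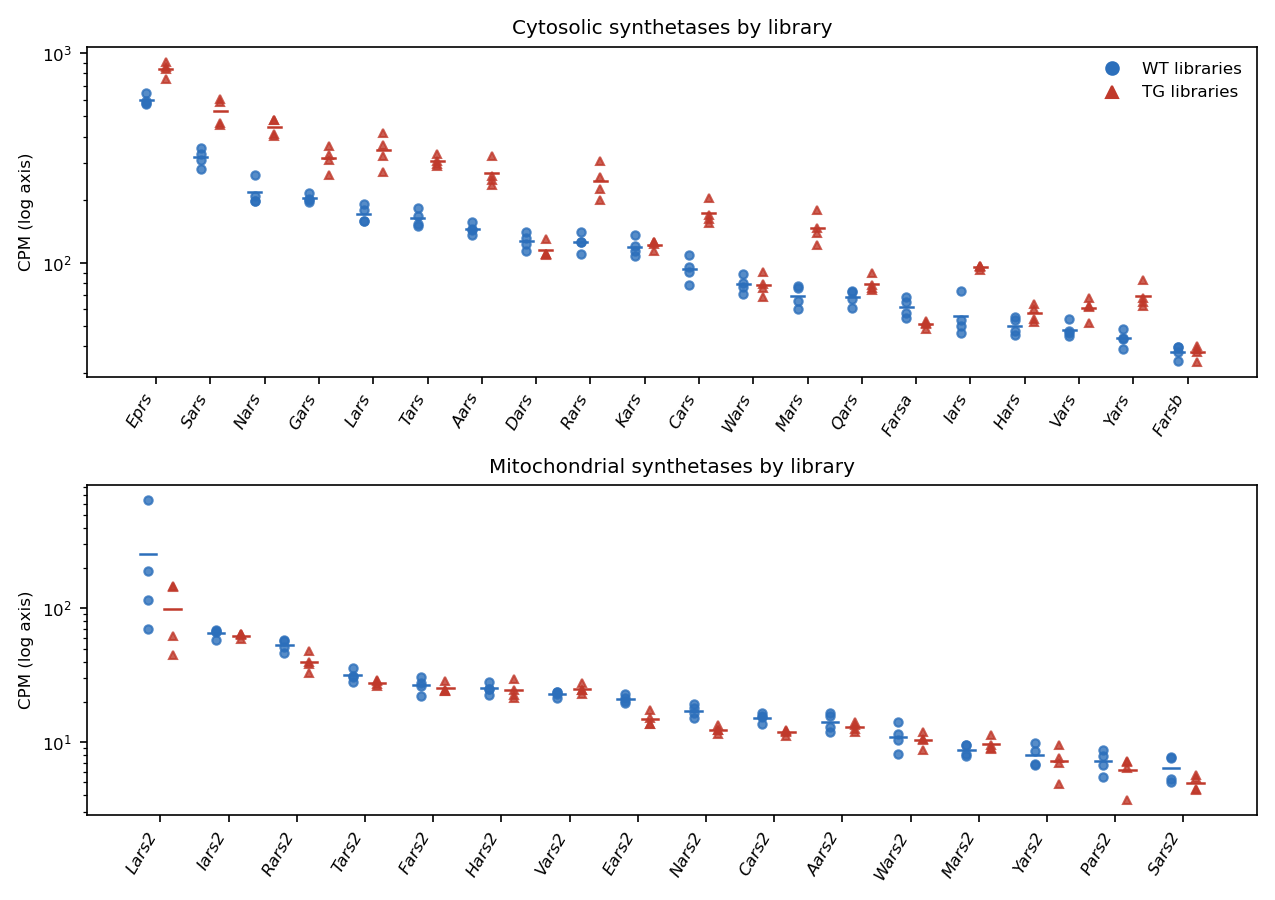
CPM of each synthetase in each library on a log axis, with genes in order of their WT mean, blue circles for the 4 WT libraries, red triangles for the 4 TG libraries and bars for the group means. In the cytosolic panel the triangles stand clear above the circles for genes such as Nars and Mars; in the mitochondrial panel the groups overlap for 13 of 16 genes, and Lars2 spans 70.4 to 641 CPM in WT.

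The mitochondrial enzymes were at lower levels than the cytosolic ones. Per kilobase of annotated exon, the median level in WT was 3.54 CPM for the mitochondrial and 21.7 CPM for the cytosolic genes, with ranges from 0.776 (Mars2) to 22.9 (Lars2) and from 7.35 (Yars) to 65.0 (Gars). The 3 genes called lower were Ears2, Nars2 and Rars2. Ears2 (ENSMUSG00000030871), the mitochondrial glutamyl enzyme, measured 13.6, 17.3, 13.7 and 15.3 CPM in TG and 21.5, 20.4, 19.5 and 22.9 CPM in WT. The groups did not overlap, with a log2 fold change of −0.49 (SE 0.13, adjusted p = 0.0121). Ears2 overlaps Ubfd1 on the opposite strand.

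Nars2 (ENSMUSG00000018995), the mitochondrial asparaginyl enzyme, measured 11.6, 13.3, 12.3 and 12.4 CPM in TG and 19.1, 18.1, 16.4 and 15.1 CPM in WT. All TG libraries were below all WT libraries, with a log2 fold change of −0.47 (SE 0.13, adjusted p = 0.0199). Its cytosolic partner Nars moved the other way. Without TG replicate 1, WT replicate 1 or WT replicate 2 the call of Nars2 was lost (−0.43, −0.42 and −0.45, with adjusted p-values of 0.0593, 0.0636 and 0.0629).

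Rars2 (ENSMUSG00000028292), the mitochondrial arginyl enzyme with the GCATGCGC match shown above, measured 32.6, 40.0, 38.1 and 48.0 CPM in TG and 51.0, 56.6, 46.2 and 57.7 CPM in WT. TG replicate 4 was above WT replicate 3, so the groups overlapped. Its log2 fold change was −0.41 (SE 0.12, adjusted p = 0.0227). The call was lost without TG replicate 1 (−0.33), TG replicate 3 (−0.43), WT replicate 2 (−0.38) or WT replicate 4 (−0.38).

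Cars2, the mitochondrial cysteinyl enzyme, was not called although its groups did not overlap. It measured 12.42, 11.82, 11.04 and 12.19 CPM in TG and 15.7, 15.4, 16.4 and 13.6 CPM in WT (−0.37, SE 0.13, adjusted p = 0.0634). The log2 fold changes of 11 further mitochondrial genes lay between −0.37 (Sars2) and 0.14 (Mars2), and each of these genes had overlapping groups. Iars2, the second most abundant by counts, measured 62.5 ± 2.46 CPM in TG and 65.1 ± 4.80 CPM in WT (SD, n = 4). Tars2 measured 27.8 ± 1.25 and 31.6 ± 3.23 CPM. Vars2 and Mars2 were the only mitochondrial genes with a higher estimate in TG, at 0.12 and 0.14.

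Of the further mitochondrial genes just described, the 9 other than Iars2 and Tars2 were at low levels, and their groups overlapped. Between 20 and 30 CPM in both groups were the phenylalanyl, histidyl and valyl enzymes: Fars2 measured 25.3 ± 2.12 CPM in TG and 26.7 ± 3.43 CPM in WT, and Hars2 24.4 ± 3.57 and 25.2 ± 2.37 CPM (SD, n = 4). Vars2 measured 24.8 ± 1.996 and 22.8 ± 1.12 CPM. Below them, the alanyl enzyme Aars2 measured 13.0 ± 0.99 and 14.3 ± 2.19 CPM, and the tryptophanyl enzyme Wars2 10.40 ± 1.29 and 11.03 ± 2.44 CPM. The methionyl enzyme Mars2 measured 9.68 ± 1.11 CPM in TG and 8.77 ± 0.91 CPM in WT, with the smallest level per kilobase of all 36 genes.

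The 3 members with the lowest counts were Yars2, Pars2 and Sars2, for tyrosine, proline and serine. Pars2 measured 7.29, 7.16, 6.45 and 3.70 CPM in TG and 6.76, 8.80, 5.51 and 7.88 CPM in WT, and TG replicate 4 was the lowest of the 8 libraries (−0.23, adjusted p = 0.552). Yars2 measured 7.26 ± 1.95 CPM in TG and 8.01 ± 1.48 CPM in WT (SD, n = 4), again with TG replicate 4 lowest, at 4.84 CPM. Sars2 measured 4.37, 4.49, 5.39 and 5.64 CPM in TG and 5.31, 5.07, 7.78 and 7.64 CPM in WT, a log2 fold change of −0.37 with an SE of 0.21. That change was no smaller than that of Cars2, but its replicates were spread more widely.

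Lars2, the mitochondrial leucyl enzyme, stood apart in its spread. It measured 146, 145, 61.9 and 45.1 CPM in TG and 641, 190.0, 115 and 70.4 CPM in WT, so that WT replicate 1 held more than the sum of the other WT libraries. Its log2 fold change was −1.35 (SE 0.82, adjusted p = 0.33), and −0.34 (SE 0.58, adjusted p = 0.785) without WT replicate 1. That library was also the highest for the mitochondrial ribosomal RNAs. In TG the order differed: replicate 4 was the highest TG library for these RNAs and the lowest for Lars2. The small ribosomal RNA, mt-Rnr1, measured 809, 552, 557 and 827 CPM in TG and 2106, 1013, 957 and 1393 CPM in WT. The large ribosomal RNA, mt-Rnr2, which was called lower in TG, measured 7089, 5268, 6083 and 7768 CPM in TG and 15155, 9327, 9205 and 12361 CPM in WT. Whether these RNAs bear on the counts of Lars2 was not tested. Without Lars2 the median log2 fold change of the mitochondrial genes was −0.14.

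The classes were also compared within each library. Each of the 16 mitochondrial genes was paired with the cytosolic gene for the same amino acid, giving 17 pairs because Fars2 faces both Farsa and Farsb, while Eprs faces both Ears2 and Pars2. The log2 ratio of cytosolic to mitochondrial CPM was higher in every TG library than in every WT library for 11 pairs, lower in 0 pairs, and overlapped in 6 pairs. No share over other gene pairs was computed to set beside these counts. The ratios restate the changes of the single genes given above and are not separate evidence. The mean difference was above 0 in 16 pairs, and the median over pairs was 0.92. Ratios compare counts, not levels per length, so only their change between groups is described.

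The asparaginyl pair had the largest difference among pairs without overlap. Its log2 ratio was 5.11, 5.17, 5.06 and 5.27 in TG and 3.37, 3.46, 3.67 and 4.12 in WT, a difference of 1.501. The arginyl pair varied little within groups, at 2.61, 2.68, 2.56 and 2.67 in TG and 1.30, 1.15, 1.26 and 1.29 in WT, a difference of 1.38. In the isoleucyl pair the order of the genes changed: Iars had fewer counts than Iars2 in 3 of 4 WT libraries and more in all 4 TG libraries, with log2 ratios of 0.72, 0.58, 0.53 and 0.60 in TG and −0.43, −0.36, −0.32 and 0.15 in WT. Iars2 overlaps Rab3gap2 on the opposite strand, in which 22.0% of its 50-base stretches were found. The pairs that overlapped were those of leucine, histidine, valine and tryptophan and both of phenylalanine.

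**Figure D3:**
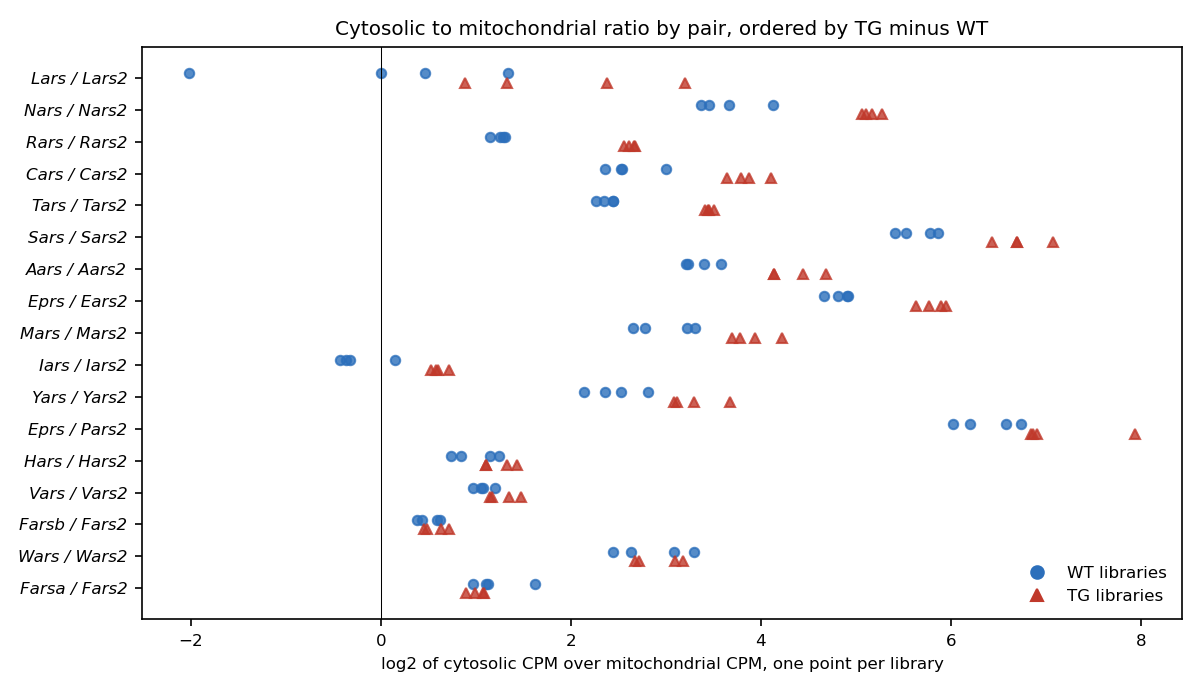
Log2 ratio of cytosolic to mitochondrial CPM for 17 pairs of synthetases in each of the 8 libraries, with blue circles for WT and red triangles for TG, ordered by the difference of the group means. Triangles lie to the right of all circles in 11 pairs; the leucyl pair at the top has the largest difference of means but overlapping groups, and the pair of Farsa and Fars2 at the bottom is the only one with a lower mean in TG.

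Summed over the 20 genes, cytosolic synthetases took up 4000.2, 4774, 4065 and 4648 CPM in TG and 2774, 2675, 2781 and 2952 CPM in WT, 1.56 times as much in TG on average and without overlap. The 15 mitochondrial genes other than Lars2 took up 276, 315, 294 and 296 CPM in TG and 337, 349.5, 308 and 339 CPM in WT, which overlapped. The ratio of these sums was 14.8 ± 0.82 in TG and 8.40 ± 0.60 in WT (SD, n = 4). TG replicate 2 was the highest TG library for 13 of the 20 cytosolic and 8 of the 16 mitochondrial genes. TG replicate 1 was the lowest for 9 cytosolic and 10 mitochondrial genes, and it had the highest summed level of 11 acinar markers, 44691 CPM against at most 13847 CPM in the other libraries.

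Markers of other cells moved with the same groups. The summed level of 10 endothelial markers lay between 1312 and 1344 CPM in TG and between 544 and 939 CPM in WT, that of 10 stellate, fibroblast and mural markers between 3348 and 6485 and between 844 and 2798 CPM, and that of 10 macrophage and lymphocyte markers between 177 and 460.4 and between 99.1 and 159 CPM. No marker of these lists was at 0 in all libraries, while Cd3e was at 0 in WT replicate 4. In bulk RNA, fewer cells of a type and less RNA per cell cannot be told apart. With the endothelial and stromal markers as a covariate, 6 of the 13 cytosolic calls remained (Iars, Lars, Mars, Nars, Rars and Tars). With the macrophage and lymphocyte markers 5 did (the same genes without Mars). Over all 20509 genes tested, 123 and 203 were called higher in these fits, against 2475 without a covariate. Those called lower numbered 198 and 291, against 1654. The median log2 fold change of the cytosolic genes was 0.63 and 0.55 with these covariates. Of the lost cytosolic calls, Cars (0.95), Gars (0.81) and Sars (0.79) had log2 fold changes in the endothelial and stromal fit above those without the covariate. Eprs was nearly unchanged, at 0.488 against 0.489. The SEs of Cars, Gars, Sars and Eprs in that fit lay between 0.21 and 0.25. Aars (0.77), Yars (0.50) and Vars (0.19) had smaller log2 fold changes than without the covariate. With the macrophage and lymphocyte markers these 7 genes lay between 0.17 (Vars) and 0.76 (Cars). The 3 mitochondrial calls were lost in both fits. Nars2 was then at −0.41 (SE 0.29) and −0.55 (SE 0.25), Ears2 at −0.23 (SE 0.26) and −0.47 (SE 0.24), and Rars2 at 0.041 (SE 0.23) and −0.18 (SE 0.22). The summed levels of these marker lists did not overlap between the groups, so these fits cannot separate a difference between groups from one in marker level. The part of these cells in the results was not tested.

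**Figure D4:**
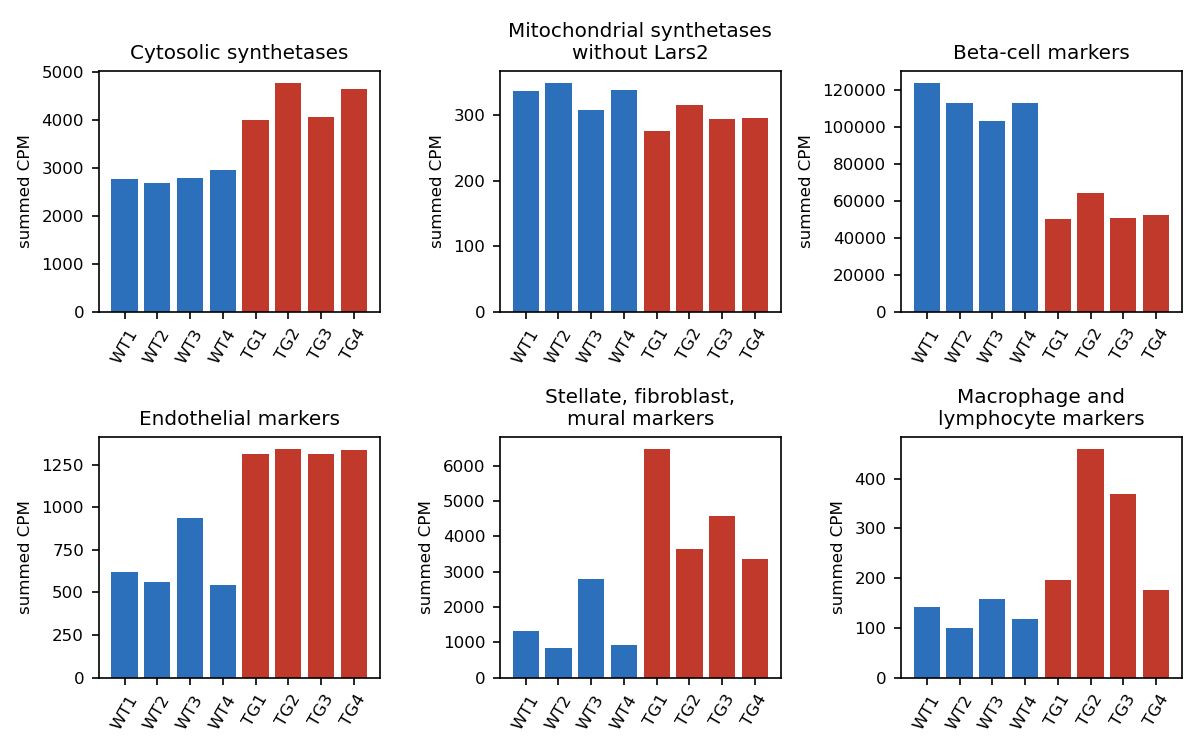
Summed CPM in each library of the cytosolic synthetases, the mitochondrial synthetases without Lars2, and 4 lists of cell-type markers, with WT libraries in blue and TG libraries in red. Cytosolic synthetases and endothelial, stromal and macrophage markers are higher in all 4 TG libraries, and beta-cell markers are lower (50093 to 64198 against 103120 to 123760 CPM).

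Of 35 tested genes that act around the synthetases, 3 were called higher and 2 lower, 14.3% in all against 20.1% of all genes tested. Xpot, the export receptor that carries tRNA out of the nucleus, measured 133, 159, 149 and 155 CPM in TG and 85.6, 82.8, 97.1 and 103 CPM in WT. The groups did not overlap, and its log2 fold change was 0.70 (SE 0.094, adjusted p = 0.000113), and it was the only gene called higher among 8 genes of tRNA maturation and export. Rpp38, a subunit of the ribonucleases P and MRP, was the 1 gene of that list called lower (−0.52, adjusted p = 0.0274). Elongation factor 1 delivers charged tRNA to the ribosome, and 2 of its 5 genes were called higher, Eef1a1 (0.25, adjusted p = 0.0372) and Eef1d (0.27, adjusted p = 0.0279).

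Sepsecs, which makes selenocysteine on its tRNA, went the other way from the cytosolic synthetases. It measured 68.8, 88.5, 79.6 and 88.8 CPM in TG and 132, 157, 126 and 149 CPM in WT, a log2 fold change of −0.79 (SE 0.10, adjusted p = 7.81e-05), and the other 5 genes of selenocysteine charging and insertion were not called. Among 4 editing genes, 5 genes of mitochondrial tRNA amidation, formylation and delivery, and 3 genes of uncharged tRNA sensing, 0 were called. Eif2ak4, the GCN2 kinase that senses uncharged tRNA, had a log2 fold change of 0.23 (SE 0.095, adjusted p = 0.107). Tarsl2, a further gene resembling Tars, measured 26.3 ± 2.31 CPM in TG and 30.4 ± 2.63 CPM in WT (SD, n = 4; −0.21, adjusted p = 0.211).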

How the data were processed

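RNA was measured in 8 islet libraries, and the deposited tables hold raw read counts per Ensembl mouse gene, not normalized. The submitters' processing notes name STAR 2.7.10a, HTSeq 0.11.3 and build mm39, while the strand setting was not found in them. Entries for reads outside any gene (25.3% to 31.5% of each table) and ambiguous reads (3.74% to 4.36%) were left out. Symbols and exon lengths came from GENCODE vM21 on GRCm38, so no gene coordinates are printed, and promoters came from RefSeq on GRCm38.p6.

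All 20509 genes that passed edgeR's filterByExpr (minimum count 10) were fitted with edgeR 4.0.16 in R 4.3.3: TMM scaling, robust quasi-likelihood test, two-sided, with group as the only term and Benjamini-Hochberg adjustment over all genes tested. Single-gene adjusted p-values come from this fit, and calls were made at values under 0.05. The fitting step was checked on simulated data. Class counts, medians, sums and ratios are descriptions without a test. All 36 synthetases are named, with genes of the related lists and Atf4. Some items are not reported here. Members and lists were chosen with earlier results of these data known. Alternatives were DESeq2 1.42.0, limma-voom (limma 3.58.1), other scalings and filters, a replicate block, 3 marker covariates, and leaving out each library. A count of 0 in the smallest library (16521087 counts) allows up to 3 counts or 0.182 CPM, for counting error only. Figures were drawn with matplotlib 3.10.9.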

Additional observations from a re-analysis of the deposited data

Results flagged for a closer look

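In 3 of 72 groups of 4 libraries (36 genes in TG and in WT), 1 library stood far from the rest by Dixon's criterion at the 95% level, and chance alone flags about 1 in 20 groups. Dars was at 130 CPM in TG replicate 4, with the other TG libraries at 109.6 to 109.9 CPM. Nars was at 263 CPM in WT replicate 4, with the other WT libraries at 197 to 208 CPM. Fars2 was at 28.5 CPM in TG replicate 2, with the other TG libraries at 24.2 to 24.4 CPM.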

How the results depend on the processing

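Over 19 alternatives, 36 of 684 single-gene results lost a call and kept their sign, 9 gained one and 638 kept their side of the threshold. The remaining 1 lost its call and changed sign. Of the 684, 33 had another sign than the reported value, 32 of them in 13 genes called in neither fit (Farsb, Kars, Wars and Hars2 most often). The other was Rars2, which was at 0.041 (adjusted p = 0.977) with the endothelial and stromal covariate. The number of cytosolic genes called higher was 13 as reported, 6 with that covariate, 5 with the macrophage and lymphocyte covariate, and 12 to 13 when 1 library was left out. The number called lower was 0, but 1 (Farsa) under DESeq2, median-of-ratios scaling, upper-quartile scaling and the acinar covariate, and 0 to 1 with 1 library left out. Mitochondrial genes called higher numbered 0 in every alternative run. Those called lower numbered 3, but 4 under DESeq2, limma-voom and upper-quartile scaling, where Cars2 was called (adjusted p = 0.027, 0.0487 and 0.0371), 0 with the endothelial and stromal and with the macrophage and lymphocyte covariate, 1 with the acinar covariate (Ears2 was then at −0.44, adjusted p = 0.0511), and 1 to 3 with 1 library left out. The calls of Aars, Cars, Eprs, Gars, Sars, Vars and Yars were lost with both of the former covariates, and the SE of Aars rose from 0.10 to 0.23 with the endothelial and stromal one. The cytosolic median of 0.66 was 0.55 with the macrophage and lymphocyte covariate and 0.57 to 0.72 with 1 library left out. The mitochondrial median of −0.16 was 0.045 with the endothelial and stromal covariate and −0.25 to −0.14 with 1 library left out. Over all genes tested, 4129 were called, 321 and 494 with these covariates, and 2864 to 4404 with 1 library left out. The labels do not state whether replicate numbers pair the libraries. Same-number correlations of deviations lay between −0.03 and 0.08, and 3 of 8 libraries correlated best with their own number. These values cannot exclude a pairing. With the replicate block, 13 cytosolic genes were called higher, 3 mitochondrial genes lower and 4673 genes in all. The low counts of mitochondrial genes such as Sars2, Pars2 and Yars2 limit what could be detected for them.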
